A study of Mus musculus with 19 samples.

Results

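The genes described here are 30 genes of glycolysis and glycogen metabolism, measured in a fast hindlimb muscle of wild-type mice and of mice that express an expanded CUG repeat. The genes were taken by symbol, using only probe sets (groups of short probes for 1 transcript) annotated with 1 gene symbol, and each gene was followed on its brightest probe set by mean level over all 19 samples. A probe set of this kind was found for 27 of the 30 genes, among 18193 such genes on the array, and all 27 passed the filter on low signal that left 11533 genes. Gpi1, Pfkfb1 and Eno1 were not analysed here. The 27 genes had 55 probe sets in all, of which 51 were tested.

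The muscle was the extensor digitorum longus (EDL) of FVB mice aged 19 weeks. There were 9 wild-type samples and 10 samples of HSALR line 20 b, with 1 array each. HSALR mice carry a human skeletal actin gene with a long CTG repeat inserted into it, and are used as a model of myotonic dystrophy type 1. The transgene is driven by the skeletal actin promoter, so the repeat RNA is made in muscle fibres and not in all the tissues affected in the disease, and the group is a single transgenic line. No other treatment or allele is given for either group, and the labels do not say that each sample is a separate animal, so the p-values measure the spread between these samples, which may in part be technical.

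Glycolysis splits glucose into pyruvate, which fast fibres largely turn into lactate, and glycogen is the glucose store that these fibres draw on during contraction. Glycogen phosphorylase releases glucose units from the store after phosphorylase kinase, itself switched on by calcium and by protein kinase A, has phosphorylated it, while glycogen synthase with the branching enzyme rebuilds the store on a glycogenin core. The pace of glycolysis is set mainly at phosphofructokinase, whose activator fructose 2,6-bisphosphate is made and removed by the enzymes of the Pfkfb family, and which fructose bisphosphatase opposes.

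The values are linear signal intensities, used here as log2(signal + 16), and differences are HSALR minus wild type on that scale with their standard error. Trimmed mean signal ranged from 157 to 244 between arrays, so differences were computed with the arrays scaled as deposited, which is meant where nothing else is said, and again after quantile normalization, which shifted the median difference over all genes by -0.05. HSALR samples 9 and 10 stood apart from the rest: they correlated with each other at a Spearman rho of 0.978, above every other pair of arrays (0.969 at most), and after quantile normalization their macrophage and monocyte markers lay 1.66 and 1.68 above the wild-type mean, against -0.24 to 0.65 in the other 8 HSALR samples. Their fibroblast markers lay 1.43 and 1.36 above it, against -0.51 to 0.48. All 11 fast fibre markers were bright, as the muscle's label implies, with a summed signal of 133310 to 152938 in wild type and 120543 to 147348 in HSALR. Of these 11, 0 passed as deposited (2 lower and 0 higher at an unadjusted limma p under 0.05). After quantile normalization 3 fell (Actn3, Atp2a1 and Casq1, against 8.39% of all genes). The 9 slow fibre markers summed to 3123 to 32813 in wild type and to 3273 to 18065 in HSALR, a wide range within each group, and their median difference was -0.60 (-0.22 without HSALR samples 9 and 10), with 0 of 9 past the test and 0 at an unadjusted limma p under 0.05. Of 3 fat cell markers tested, Adipoq and Retn rose under both scalings, with and without samples 9 and 10, and the median difference of the 3 was 0.69. Of all genes, 3.11% rose as deposited and 7.08% after quantile normalization. Of 3 red blood cell markers, Hba-a1 lay near the floor of the scale, Slc4a1 ranged from 4.58 to 8.13 in wild type and from 5.24 to 6.76 in HSALR, and Alas2, the one tested, ranged from 6.54 to 10.47 and from 5.40 to 9.81 (difference -0.73 ± 0.52, adjusted p = 0.452). In whole muscle, a lower signal from fewer cells of a type and from less RNA per cell cannot be told apart.

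Most transcripts of the pathway differed little in size between the groups. The largest difference was that of Pfkfb3, a regulator of the phosphofructokinase step, on its brightest probe set. With the arrays as deposited, Fbp2 rose in HSALR muscle and Pfkfb3 and Phkb fell, so that 1 of the 27 genes was higher and 2 were lower at an adjusted p under 0.05 (limma, Benjamini-Hochberg over 22519 probe sets). Of all genes tested, 3.11% were higher and 2.31% were lower. The median difference was -0.003 over the 27 genes and 0.05 over all genes. After quantile normalization 2 genes were higher (Fbp2 and Pgam1, against 7.08% of all genes) and 8 were lower (Gyg, Pfkfb3, Pgm1, Phka1, Phkb, Phkg1, Pkm and Pygm, against 8.39%), with medians of -0.07 and -0.004. Without HSALR samples 9 and 10, Fbp2 was the 1 gene higher (against 2.09% of all genes) and Pfkfb3 the 1 gene lower (against 1.84%). Without these samples and after quantile normalization, Fbp2 and Gbe1 were higher (against 5.76%) and the same 8 genes were lower (against 6.09%). As deposited, 0 of the 27 genes had groups that did not overlap (0.728% of all genes did), while 13 had an unadjusted limma p under 0.05, 4 higher and 9 lower. The share of all genes at that unadjusted limit was not computed, so such counts, here and for the other lists, cannot be read as particular to a list. After quantile normalization 1 gene had groups that did not overlap, Phkb (against 1.99%).

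**Figure D1:**
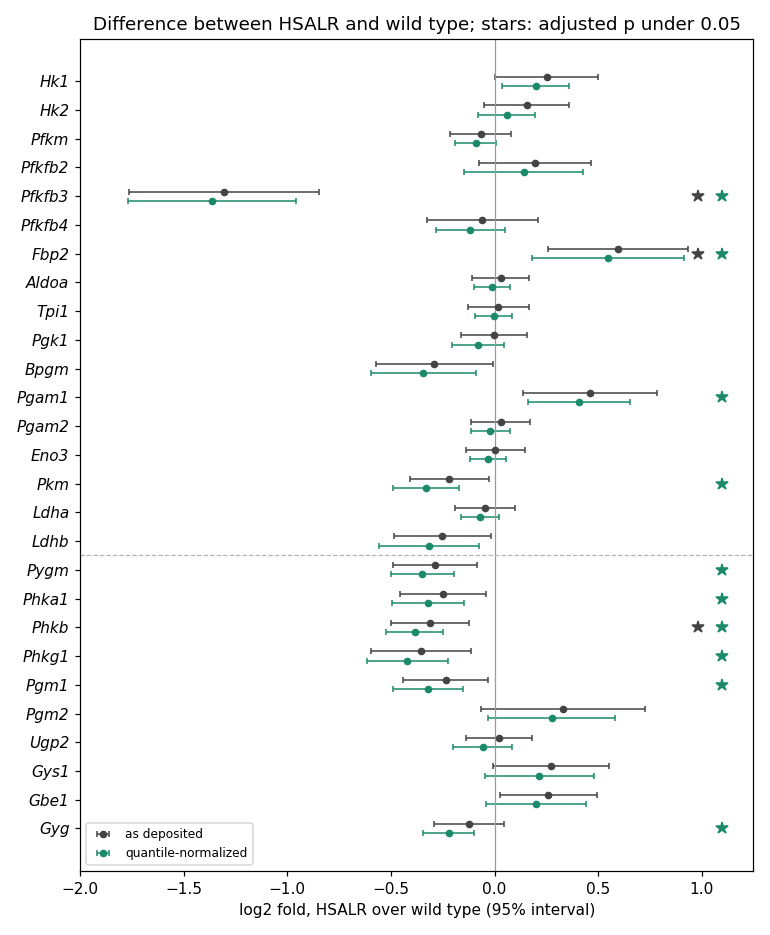
Difference between HSALR (n = 10) and wild type (n = 9) on the log2 scale for each of the 27 genes, with its 95% interval, for arrays as deposited (dark) and after quantile normalization (green). Stars at the right mark an adjusted p under 0.05 under each scaling, and the dashed line divides glycolysis (above) from glycogen metabolism (below). Pfkfb3 lies far to the left of the others at -1.31 as deposited, and most bright enzymes of the lower pathway sit near 0.

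Promoters of some of the genes these results turn on are printed here from RefSeq (build GRCm38.p6). Each is 300 bases long, from 250 bases before the transcription start to 50 after it, read 5′ to 3′ on the gene's strand. Capitals mark matches on either strand to the E-box CANNTG, bound by the muscle MyoD family and by basic helix-loop-helix factors in general, to ACGTG, the core of the element bound by hypoxia-inducible factors, and to the MEF2 motif; CACGTG holds both of the first 2. Pfkfb3 has 2 annotated starts, both on chromosome 2, Fbp2 lies on chromosome 13, and the 3 phosphorylase kinase subunits lie on chromosomes 8 (Phkb), X (Phka1) and 5 (Phkg1). Pgam2 (chromosome 11) is shown beside them as a muscle enzyme with a difference near 0.
Pfkfb3 start 1: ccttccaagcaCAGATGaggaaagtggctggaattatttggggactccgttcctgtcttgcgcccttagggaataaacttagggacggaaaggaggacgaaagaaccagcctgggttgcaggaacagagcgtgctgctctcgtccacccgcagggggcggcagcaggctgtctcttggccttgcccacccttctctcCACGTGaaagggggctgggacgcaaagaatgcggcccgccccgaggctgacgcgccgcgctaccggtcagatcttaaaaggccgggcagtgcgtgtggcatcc
Pfkfb3 start 2: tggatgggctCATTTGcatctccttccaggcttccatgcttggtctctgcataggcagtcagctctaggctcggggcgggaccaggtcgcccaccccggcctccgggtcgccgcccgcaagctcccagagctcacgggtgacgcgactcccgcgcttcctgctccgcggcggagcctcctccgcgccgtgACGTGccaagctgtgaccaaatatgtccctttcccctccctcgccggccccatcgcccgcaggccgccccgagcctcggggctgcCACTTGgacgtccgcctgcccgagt
Fbp2: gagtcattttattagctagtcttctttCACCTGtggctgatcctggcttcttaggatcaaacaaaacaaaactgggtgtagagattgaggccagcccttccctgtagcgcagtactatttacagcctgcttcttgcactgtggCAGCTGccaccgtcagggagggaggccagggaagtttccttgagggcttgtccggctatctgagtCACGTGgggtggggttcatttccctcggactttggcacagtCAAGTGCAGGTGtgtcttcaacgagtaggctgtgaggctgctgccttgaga
Phkb: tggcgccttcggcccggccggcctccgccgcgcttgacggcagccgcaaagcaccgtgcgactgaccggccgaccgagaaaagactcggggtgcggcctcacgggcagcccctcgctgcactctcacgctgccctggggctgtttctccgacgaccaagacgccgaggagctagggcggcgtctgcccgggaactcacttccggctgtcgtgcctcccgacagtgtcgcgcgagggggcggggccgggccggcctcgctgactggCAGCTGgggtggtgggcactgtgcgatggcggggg
Phka1: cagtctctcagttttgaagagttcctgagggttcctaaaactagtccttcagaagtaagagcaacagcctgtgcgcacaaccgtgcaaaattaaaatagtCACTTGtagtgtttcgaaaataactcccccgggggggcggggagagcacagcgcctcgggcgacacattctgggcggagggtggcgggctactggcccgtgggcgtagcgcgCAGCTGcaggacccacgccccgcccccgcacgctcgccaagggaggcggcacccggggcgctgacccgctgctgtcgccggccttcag
Phkg1: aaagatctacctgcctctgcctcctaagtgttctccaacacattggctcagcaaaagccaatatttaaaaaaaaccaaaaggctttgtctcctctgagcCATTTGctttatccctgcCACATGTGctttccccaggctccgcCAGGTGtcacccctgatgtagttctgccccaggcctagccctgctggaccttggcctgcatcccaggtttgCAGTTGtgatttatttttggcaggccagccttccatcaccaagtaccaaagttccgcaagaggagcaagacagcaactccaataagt
Pgam2: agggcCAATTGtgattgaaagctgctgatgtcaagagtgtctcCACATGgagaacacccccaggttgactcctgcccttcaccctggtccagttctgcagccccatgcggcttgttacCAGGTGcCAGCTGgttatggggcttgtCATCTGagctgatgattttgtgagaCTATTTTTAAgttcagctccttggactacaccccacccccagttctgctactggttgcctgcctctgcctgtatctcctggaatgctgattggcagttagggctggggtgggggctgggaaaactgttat

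The first Pfkfb3 window, at chr2:11502041-11502340, held 2 matches to ACGTG and 2 to the E-box, and the second, at chr2:11553880-11554179, held 1 and 2. The 2 ACGTG matches of the first window are the 2 strands of 1 CACGTG, which is also counted as an E-box. The Fbp2 window at chr13:62858351-62858650 held 2 matches to ACGTG, again the 2 strands of 1 CACGTG, and 5 to the E-box, that site among them. No ACGTG stood in the windows of Phkb (chr8:85840738-85841037), Phka1 (chrX:102644197-102644496) or Phkg1 (chr5:129879039-129879338), which held 1, 2 and 5 E-boxes. The window of Pygm, not printed, held 1 match to ACGTG and 3 E-boxes. ACGTG also stood in at least 1 window of Pgm1, Gyg and Pkm, which were lower after quantile normalization. Of genes nearly level between the groups, Aldoa, Ldha and Pgk1 held it in at least 1 window, and Tpi1 and Eno3 did not. The Pgam2 window at chr11:5803747-5804046 held the MEF2 motif once and 5 E-boxes. All 30 genes had an entry, with 47 start sites: 42.6% of these windows held ACGTG, against 19.6% of 32851 windows of all genes, 78.7% held an E-box, against 72.3%, and 4.26% held the MEF2 motif, against 3.19%. These are matches of letters and show no binding.

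Pfkfb3 showed the largest difference of the 27 genes. It encodes a 6-phosphofructo-2-kinase with high kinase activity, which makes the activator of phosphofructokinase. On its brightest probe set, log2 signal was lowest at 10.08, with a median of 10.97 and a highest value of 11.59, in wild type, and 8.78, 9.50 and 10.48 in HSALR. Of the 10 HSALR samples, 8 lay below every wild-type sample, while HSALR samples 6 and 9 lay above wild-type samples 2 and 5. Pfkfb3 fell 2.47-fold, by 1.31 ± 0.22 on the log2 scale (adjusted p = 0.000758), by 1.36 ± 0.20 after quantile normalization (adjusted p = 8.84e-05), and the difference was -1.47 without HSALR samples 9 and 10 (adjusted p = 0.000138). It stayed past the threshold in all 19 fits that left out 1 sample, with adjusted p between 0.000192 and 0.00219.

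The other Pfkfb3 probe set was dimmer and did not follow. Its lowest, median and highest values were 6.31, 6.82 and 7.74 in wild type and 5.94, 6.70 and 7.05 in HSALR, so the groups overlapped almost throughout. Its difference was -0.22 ± 0.18 (adjusted p = 0.529). Pfkfb3 was the 1 gene, of 12 members with several tested probe sets, whose probe sets differed from each other in their response (limma diffSplice, adjusted p = 0.0425 over 4782 genes, of which 1.88% passed). Which transcripts each probe set reads was not analysed here, and the part of the low signal in this result was not tested.

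Of the related kinases, Pfkfb2, the isoform of heart, had values from 7.96 to 8.79 in wild type and from 7.95 to 8.85 in HSALR, a difference of 0.20 ± 0.13 (adjusted p = 0.417), or 0.14 ± 0.14 after quantile normalization. HSALR samples 9 and 10 were its lowest HSALR samples, and without them the difference was 0.30 (adjusted p = 0.223). Pfkfb4, a further isoform, differed by -0.06 ± 0.13 (adjusted p = 0.839), or -0.12 ± 0.08 after quantile normalization (adjusted p = 0.343). Pfkm, the muscle phosphofructokinase that these enzymes act on, was among the brightest genes at 13.34 to 13.59 in wild type and 13.24 to 13.60 in HSALR, and differed by -0.07 ± 0.07 (95% interval -0.21 to 0.08), or -0.09 ± 0.05 after quantile normalization.

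Fbp2, the muscle fructose bisphosphatase that catalyses the reverse of the phosphofructokinase step, moved the other way. Its log2 signal had a lowest value of 7.72, a median of 8.06 and a highest of 8.33 in wild type, and 7.80, 8.69 and 9.38 in HSALR. HSALR samples 6 and 10 lay within the wild-type range and the other 8 above it. Fbp2 rose 1.51-fold, by 0.60 ± 0.16 (adjusted p = 0.0334), by 0.55 ± 0.18 after quantile normalization (adjusted p = 0.0408) and by 0.70 without HSALR samples 9 and 10 (adjusted p = 0.00837). The call is near its threshold as deposited: it was lost in 10 of the 19 fits without 1 sample (adjusted p from 0.00638 to 0.0669) and with no filter on low signal.

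**Figure D2:**
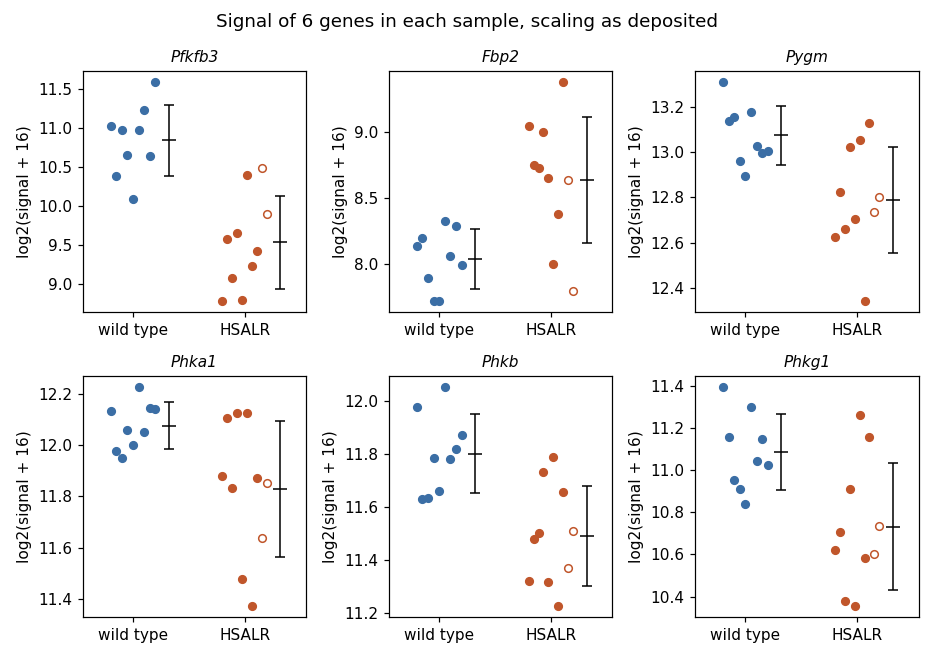
Log2(signal + 16) as deposited in each wild-type (blue, n = 9) and HSALR sample (orange, n = 10) for 6 genes, each panel with its own axis; open circles are HSALR samples 9 and 10, and black marks give the mean and SD. In Pfkfb3, 8 HSALR samples lie below all wild-type samples, in Fbp2 8 lie above, and in Pygm and the 3 kinase subunits 7 lie below.

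Hexokinases trap glucose in the cell, and neither of the 2 measured passed the test. Hk2, the main form of insulin-sensitive muscle, ranged from 12.11 to 12.68 in wild type and from 12.17 to 12.80 in HSALR (difference 0.15 ± 0.10, adjusted p = 0.391, and 0.06 ± 0.07 after quantile normalization). Hk1, the form present in most tissues, ranged from 7.93 to 8.60 and from 7.86 to 8.82 (0.25 ± 0.12, adjusted p = 0.233, and 0.20 ± 0.08 after quantile normalization, adjusted p = 0.0875).

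The enzymes of the lower pathway were bright and nearly level between the groups. Differences were 0.03 ± 0.07 for Aldoa (aldolase), 0.02 ± 0.07 for Tpi1 (triosephosphate isomerase), -0.003 ± 0.08 for Pgk1 (phosphoglycerate kinase), 0.03 ± 0.07 for Pgam2 (muscle phosphoglycerate mutase), 0.003 ± 0.07 for Eno3 (muscle enolase) and -0.05 ± 0.07 for Ldha (the lactate dehydrogenase subunit of fast muscle). The sign of the differences of Aldoa, Tpi1, Pgam2 and Eno3 turned after quantile normalization, where they lay between -0.03 and -0.005, so no direction is given for them. That of Pgk1 was -0.08 ± 0.06 and that of Ldha -0.07 ± 0.04 after it. The probe sets of Aldoa and of Pgk1 did not share a sign as deposited: the other 2 of Pgk1 differed by 0.12 ± 0.09 and 0.20 ± 0.12, neither past the test. The widest of these 95% intervals as deposited, that of Pgk1, ran from -0.16 to 0.16. Pfkm, Aldoa, Tpi1, Pgam2, Eno3 and Ldha all had mean levels over 13, where the highest signal of an array was 13.77 to 14.07, and a probe set this close to the top of the scale can understate a difference.

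Pkm, pyruvate kinase, was the exception among these steps once arrays were brought to 1 distribution. Its lowest, median and highest values as deposited were 12.20, 12.35 and 12.62 in wild type and 11.86, 12.16 and 12.48 in HSALR, with 7 HSALR samples below every wild-type sample. The difference of -0.22 ± 0.09 missed the threshold (adjusted p = 0.182). After quantile normalization Pkm fell by 0.33 ± 0.08 (adjusted p = 0.00642).

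Among the genes for side forms of these enzymes, Pgam1, the mutase of most other tissues, had its highest values in HSALR muscle. Its lowest, median and highest values were 8.05, 8.65 and 8.90 in wild type and 8.46, 8.99 and 9.74 in HSALR; 6 HSALR samples exceeded the highest wild-type value, and the top ones were HSALR samples 9 and 10 at 9.68 and 9.74. The difference was 0.46 ± 0.16 as deposited (adjusted p = 0.087), and Pgam1 rose by 0.41 ± 0.12 after quantile normalization (adjusted p = 0.0243). Without HSALR samples 9 and 10, in which the macrophage and fibroblast markers were also highest, the difference after quantile normalization was 0.29 (adjusted p = 0.0685). The 15 macrophage markers summed to 4895 to 8289 in wild type and 4301 to 27730 in HSALR (to 11806 at most without samples 9 and 10), and Aif1 and Itgam were under the filter on low signal. As deposited, 2 of the 13 tested rose (Cd68 and Lgals3, against 3.11% of all genes), 10 were higher and 0 lower at an unadjusted limma p under 0.05, and their median difference was 0.64, or 0.31 without samples 9 and 10; their part in the result was not tested.

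Ldhb, the lactate dehydrogenase subunit of slow muscle and heart, was more widely spread in HSALR muscle. On its brightest probe set, wild-type values were tightly grouped from 11.32 to 11.53 (SD 0.08). HSALR values ran from 10.74 to 11.67 (SD 0.32), with 7 samples below every wild-type sample and 3 (samples 5, 6 and 8) above. The other Ldhb probe sets also had a larger SD in HSALR (0.29, 0.38 and 0.42), against 0.17, 0.12 and 0.17 in wild type. On these, 5, 7 and 7 HSALR samples fell under the wild-type range and 0, 2 and 2 exceeded it. They differed by -0.16, -0.26 and -0.33 and did not pass (adjusted p = 0.452, 0.258 and 0.197). On the brightest probe set the difference was -0.25 ± 0.11 (adjusted p = 0.207) and -0.32 ± 0.12 after quantile normalization (adjusted p = 0.0699). After that normalization the slow fibre markers, whose part in this was not tested, had a median difference of -0.66 and lay between -1.94 and 0.28 from the wild-type mean in HSALR samples 1 to 8, at -1.91 in sample 9 and at -1.49 in sample 10. The SD was larger in HSALR for 25 of the 27 genes as deposited, against 83.7% of all genes, so wider spread was general on these arrays. Bpgm, which makes the 2,3-bisphosphoglycerate of red blood cells and acts as a mutase elsewhere, differed by -0.29 ± 0.14 (adjusted p = 0.229), with wild-type sample 8 at 10.96 above all others; without that sample the difference was -0.19. After quantile normalization it was -0.34 ± 0.12 (adjusted p = 0.0611). Under that scaling the other Bpgm probe sets differed by -0.36 ± 0.13 (adjusted p = 0.0596) and by -0.44 ± 0.13 (adjusted p = 0.0291). The latter did not pass as deposited (adjusted p = 0.156), nor after quantile normalization without HSALR samples 9 and 10 (adjusted p = 0.0897). Wild-type sample 8 was the highest sample on these probe sets too.

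For glycogen breakdown, Pygm and the 3 measured subunits of phosphorylase kinase all fell after quantile normalization, by 0.32 to 0.42, while Phkb alone of these brightest probe sets passed as deposited. The fast fibre markers Actn3, Atp2a1 and Casq1 fell under that scaling too, by 0.23, 0.16 and 0.28, and their part in the result was not tested. Pygm, the muscle glycogen phosphorylase, had a lowest value of 12.89, a median of 13.03 and a highest of 13.31 in wild type, and 12.34, 12.77 and 13.13 in HSALR. HSALR samples 4, 6 and 8 lay within the wild-type range and the other 7 below it. The difference was -0.29 ± 0.10 as deposited (adjusted p = 0.0937), and Pygm fell by 0.35 ± 0.07 after quantile normalization (adjusted p = 0.00295), with 9 of 10 HSALR samples below every wild-type sample.

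Phosphorylase kinase, which activates Pygm, is built from alpha and beta regulatory subunits, a catalytic gamma subunit and calmodulin. Phkb, the beta subunit, had lowest, median and highest values of 11.63, 11.79 and 12.05 in wild type and 11.23, 11.49 and 11.79 in HSALR. As in Pygm, HSALR samples 4, 6 and 8 lay within the wild-type range and 7 lay below it. Phkb fell by 0.31 ± 0.09 (adjusted p = 0.0498), a call lost in 16 of the 19 fits without 1 sample and without HSALR samples 9 and 10 (adjusted p = 0.121). After quantile normalization it fell by 0.39 ± 0.07 (adjusted p = 0.000595), all 10 HSALR samples lay below every wild-type sample (11.23 to 11.71 against 11.75 to 12.0004), and without samples 9 and 10 it fell by 0.33 (adjusted p = 0.00146).

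Phka1, the muscle alpha subunit, ranged from 11.95 to 12.23 (median 12.06) in wild type and from 11.37 to 12.13 (median 11.86) in HSALR. HSALR samples 2, 4 and 6 lay within the wild-type range and 7 below it. The difference was -0.25 ± 0.10 as deposited (adjusted p = 0.163), and Phka1 fell by 0.32 ± 0.08 after quantile normalization (adjusted p = 0.0126). Its other 2 probe sets differed by -0.31 ± 0.11 (adjusted p = 0.112) and -0.42 ± 0.12 (adjusted p = 0.0419), and after quantile normalization the latter fell by 0.49, with all 10 HSALR samples below every wild-type sample.

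Phkg1, the muscle gamma subunit that carries the kinase activity, ranged from 10.84 to 11.39 (median 11.04) in wild type and from 10.35 to 11.26 (median 10.66) in HSALR. HSALR samples 4, 6 and 8 were again within the wild-type range. The difference was -0.36 ± 0.12 (adjusted p = 0.0809), and Phkg1 fell by 0.42 ± 0.09 after quantile normalization (adjusted p = 0.00505). Its second probe set, with 7 HSALR samples below every wild-type sample, fell by 0.41 ± 0.11 as deposited (adjusted p = 0.0297).

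Pgm1 links glycogen to glycolysis by turning glucose 1-phosphate into glucose 6-phosphate. Older mouse records use the symbols Pgm1 and Pgm2 the other way round, and the genes were matched here by their Entrez identifiers. Pgm1 had values of 12.0045 to 12.28 (median 12.11) in wild type and 11.57 to 12.25 (median 11.85) in HSALR, with 6 HSALR samples below every wild-type sample. The difference was -0.24 ± 0.10 (adjusted p = 0.174), and Pgm1 fell by 0.32 ± 0.08 after quantile normalization (adjusted p = 0.0119). Pgm2, a related enzyme that acts mainly on pentose phosphates, was dim at 6.01 to 6.97 in wild type and 5.99 to 7.73 in HSALR, with samples 9 and 10 highest at 7.73 and 7.68; its difference was 0.33 ± 0.19 (adjusted p = 0.337), 0.28 ± 0.15 after quantile normalization, and 0.12 as deposited without these samples.

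Of the 4 genes that build glycogen, 0 passed as deposited, with 1 (Gbe1) at an unadjusted limma p under 0.05. Gys1, muscle glycogen synthase, ranged from 10.80 to 11.44 (median 10.96) in wild type and from 10.83 to 11.97 (median 11.30) in HSALR, with a difference of 0.27 ± 0.14 (adjusted p = 0.257), or 0.22 ± 0.13 after quantile normalization. Its other probe set, which was dimmer, differed by -0.08 ± 0.16 (adjusted p = 0.831). Ugp2, which makes the UDP-glucose that the synthase uses, differed by 0.02 ± 0.08 (adjusted p = 0.909), a sign that turned to -0.06 after quantile normalization.

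Gbe1, the branching enzyme, lay higher in most HSALR samples. Its lowest, median and highest values were 9.63, 9.84 and 10.20 in wild type and 9.69, 10.16 and 10.49 in HSALR, with 5 HSALR samples above every wild-type sample and HSALR sample 9 the lowest of its group. The difference was 0.26 ± 0.11 as deposited (adjusted p = 0.193), 0.20 ± 0.12 after quantile normalization (adjusted p = 0.255), and 0.35 as deposited without HSALR samples 9 and 10 (adjusted p = 0.0861). Without HSALR samples 9 and 10 and after quantile normalization, Gbe1 rose by 0.34 (adjusted p = 0.00901).

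Gyg, the glycogenin on which a glycogen particle starts, was tested on 2 probe sets. Its values ran from 12.25 to 12.50 in wild type and from 11.92 to 12.53 in HSALR, with 6 HSALR samples below every wild-type sample and 1 above. The difference was -0.12 ± 0.08 (adjusted p = 0.419), and Gyg fell by 0.22 ± 0.06 after quantile normalization (adjusted p = 0.016). The second probe set differed by -0.21 ± 0.10 as deposited (adjusted p = 0.227) and fell by 0.30 ± 0.08 after quantile normalization (adjusted p = 0.0134).

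**Figure D3:**
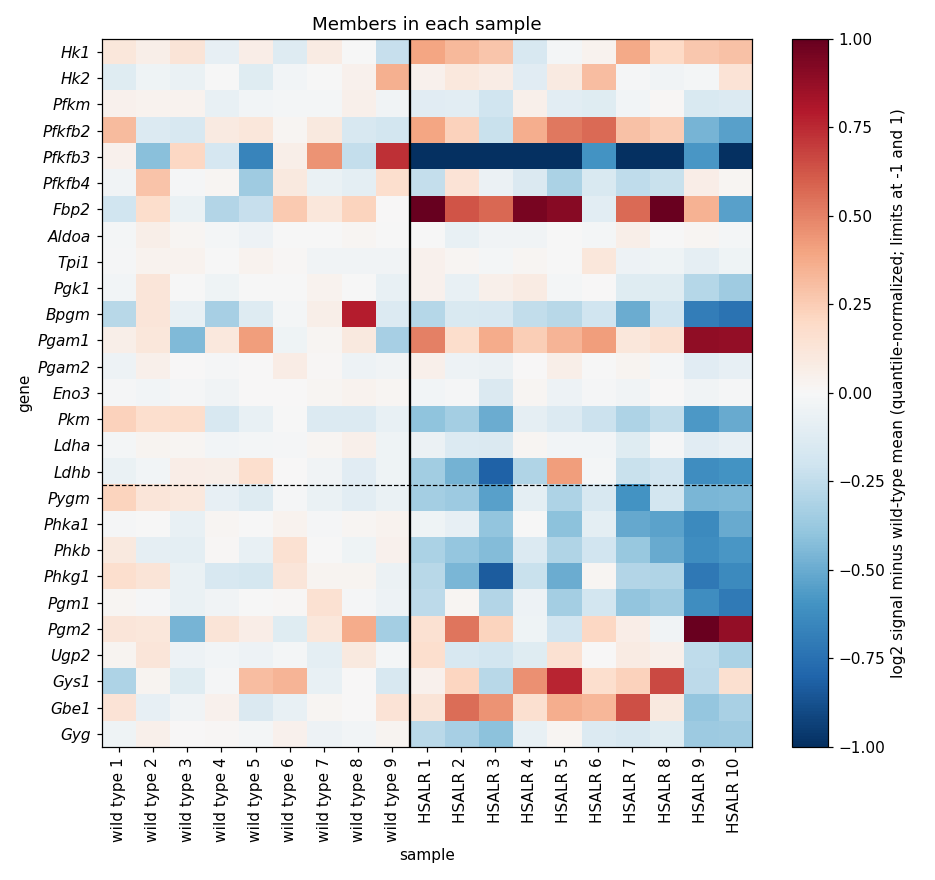
Log2 signal of each gene (rows) in each sample (columns) after quantile normalization, minus the wild-type mean of that gene; red is higher and blue is lower, and colours are limited to -1 and 1. The solid line divides wild type from HSALR and the dashed line divides glycolysis from glycogen genes. Pfkfb3 is blue in all 10 HSALR samples, the rows Pygm, Phka1, Phkb, Phkg1 and Pgm1 are mostly blue, and samples 9 and 10 share high Pgam1 and Pgm2.

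Over the 8 genes lower after quantile normalization, which were chosen by these same values, HSALR samples 3, 7, 8 and 10 had all 8 below every wild-type sample, samples 1, 2 and 9 had 7, samples 5 and 6 had 6, and sample 4 had 4. After quantile normalization samples 9 and 10 were both above the other 8 HSALR samples in 2 of the 27 genes (Pgam1 and Pgm2, against 14.7% of all genes) and both below them in 9 (Bpgm, Gbe1, Pfkfb2, Pgam2, Pgk1, Pgm1, Phkb, Pkm and Ugp2, against 17.8%). As deposited they were both above in 3 (Pfkfb4, Pgam1 and Pgm2, against 19.6%) and both below in 2 (Pfkfb2 and Ugp2, against 1.38%), so the balance turned with the scaling. The share of lower calls after quantile normalization varied with brightness: they made up 14.7% of all genes with a mean level of 10 to 12 and 13.9% of those from 12 to 13, against 5.2% of those under 8 and 5.49% of those at 13 or over. The members' 8 lower calls lay in those same bands, 4 of 6 members from 10 to 12 and 4 of 7 from 12 to 13.

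Differences between 2 genes on 1 array cancel a common factor of that array, and they compare how the groups' ratios differ, not the levels of the 2 genes. A set of 7 pairs was compared with an exact 2-sided permutation test (92378 arrangements of the group labels), with p adjusted over the 7 pairs. Each of the 7 kept its direction and its side of the threshold after quantile normalization. The ratio of Gys1 to Pygm, synthase over phosphorylase, was higher in HSALR: the log2 difference ranged from -2.46 to -1.67 (median -2.16) in wild type and from -1.82 to -1.14 (median -1.53) in HSALR, and 6 HSALR samples exceeded the highest wild-type value. The groups differed by 0.56 ± 0.12 (exact p = 0.000411, adjusted 0.00288), and by 0.57 without HSALR samples 9 and 10 (exact test, adjusted p = 0.00245). The pair uses the brighter Gys1 probe set. The level of the dimmer one, given above, differed by -0.08, a smaller fall than the -0.285 of Pygm, and its ratio to Pygm was not computed.

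Fbp2 over Pfkm, the reverse against the forward enzyme, ranged from -5.65 to -5.21 (median -5.39) in wild type and from -5.58 to -4.20 (median -4.65) in HSALR. In 8 HSALR samples it was above every wild-type sample, and samples 6 and 10 were within the wild-type range. The groups differed by 0.66 ± 0.16 (exact p = 0.00144, adjusted 0.00504), with the limit that Pfkm is near the top of the scale.

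Of the 4 pairs that set forms of 1 enzyme or related enzymes against each other across tissues, 2 were lower in HSALR, and both rested in part on samples 9 and 10. Pgam2 over Pgam1 differed by -0.43 ± 0.16 (exact p = 0.016, adjusted 0.0281) and by -0.25 without samples 9 and 10 (exact test, adjusted p = 0.1004). Pgm1 over Pgm2 differed by -0.57 ± 0.21 (exact p = 0.0102, adjusted 0.0238) and by -0.31 without them (exact test, adjusted p = 0.0765). Without those samples neither passed. Their macrophage and fibroblast markers, given above, lay above those of the other HSALR samples, and the part of these in the ratios was not tested.

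The other 2 of those 4 pairs, and the pair of kinase subunits, did not pass. Ldha over Ldhb differed by 0.20 ± 0.09 (exact p = 0.043, adjusted 0.0601), with 7 HSALR samples above every wild-type sample. Hk2 over Hk1 differed by -0.10 ± 0.14 (exact p = 0.485, the same after adjustment). Phkb over Phka1 differed by -0.06 ± 0.06 (exact p = 0.308, adjusted 0.359).

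**Figure D4:**
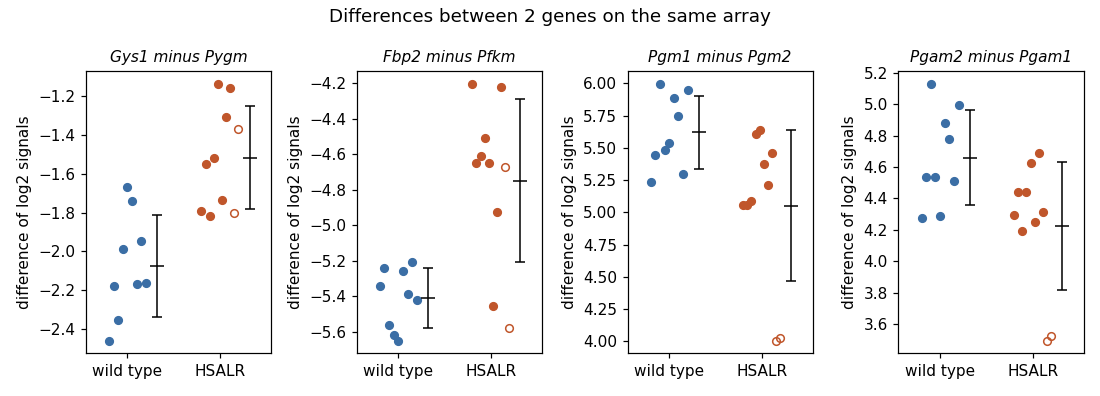
Difference of the log2 signals of 2 genes on the same array, as deposited, for wild-type (blue, n = 9) and HSALR samples (orange, n = 10); open circles are HSALR samples 9 and 10, and black marks give the mean and SD. Gys1 minus Pygm and Fbp2 minus Pfkm are higher in HSALR by 0.56 and 0.66, and in Pgm1 minus Pgm2 and Pgam2 minus Pgam1 samples 9 and 10 are the lowest points.

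Other genes of glucose handling were counted beside these enzymes. Of 11 genes of glucose and lactate transport, 3 fell as deposited (against 2.31% of all genes) and 0 rose (0 higher at an unadjusted limma p under 0.05 as well), with a median difference of -0.14 against 0.05 over all genes. Slc37a4, which carries glucose 6-phosphate into the endoplasmic reticulum, had a lowest value of 10.79, a median of 10.99 and a highest of 11.15 in wild type, and 9.27, 9.9998 and 10.54 in HSALR. All 10 HSALR samples lay below every wild-type sample, and Slc37a4 fell by 0.96 ± 0.14 (adjusted p = 9.7e-05). After quantile normalization 5 of the 11 fell (against 8.39% of all genes), these 3 and a further 2. Slc2a3, a glucose transporter best known from neurons, fell by 0.69 ± 0.16 (adjusted p = 0.0118), from a median of 8.01 to 7.08, with 7 HSALR samples below every wild-type sample. Tbc1d4, which holds the insulin-responsive glucose transporter inside the cell until it is phosphorylated, fell by 0.42 ± 0.11 (adjusted p = 0.02), with 9 HSALR samples below every wild-type sample.

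That transporter itself, Slc2a4, ranged from 11.95 to 12.34 in wild type and from 11.53 to 12.32 in HSALR, and its difference of -0.14 ± 0.10 did not pass (adjusted p = 0.441). After quantile normalization 2 more genes of lactate export fell, Slc16a3, the lactate transporter of fast fibres, by 0.42 ± 0.14 (adjusted p = 0.0442) and Bsg, its partner at the membrane, by 0.41 ± 0.10 (adjusted p = 0.00808). Slc16a3 did not pass without HSALR samples 9 and 10 (adjusted p = 0.134).

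Of 20 other glycogen genes tested, 1 rose and 1 fell as deposited (against 3.11% and 2.31% of all genes). Pgm5, a relative of phosphoglucomutase found at muscle attachments and thought to lack its activity, rose by 0.62 ± 0.13 (adjusted p = 0.00483), from a median of 7.67 to 8.31, with 9 HSALR samples above every wild-type sample. Pgm2l1, which makes glucose 1,6-bisphosphate, fell by 0.39 ± 0.10 (adjusted p = 0.0206), from a median of 8.41 to 8.00, and missed the threshold without HSALR samples 9 and 10 (adjusted p = 0.0591). After quantile normalization 2 of the 20 rose and 2 fell (against 7.08% and 8.39% of all genes). Under that scaling the kinases that inhibit glycogen synthase split, Gsk3b rising by 0.19 ± 0.06 (adjusted p = 0.025) and Gsk3a falling by 0.23 ± 0.07 (adjusted p = 0.02). Without HSALR samples 9 and 10 under that scaling, Gsk3a did not pass (adjusted p = 0.051).

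Of 12 other glycolysis enzymes tested, 0 passed as deposited, with 2 higher and 1 lower at an unadjusted limma p under 0.05. After quantile normalization Pfkp, the platelet phosphofructokinase, rose by 0.42 ± 0.10 (adjusted p = 0.00752) and Galm, which interconverts the 2 ring forms of glucose, fell by 0.37 ± 0.08 (adjusted p = 0.0027). That is 1 of the 12 in each direction, against 7.08% of all genes higher and 8.39% lower. Of 12 genes of pyruvate entry into mitochondria, 7 of the pentose phosphate pathway and 17 regulators of glycolysis, 0 passed as deposited or after quantile normalization. At an unadjusted limma p under 0.05 as deposited, 1 gene of pyruvate entry was higher and 1 lower, 1 of the pentose phosphate pathway was lower, and 4 regulators were higher and 0 lower. After quantile normalization these counts were 1 higher and 3 lower, 1 higher and 2 lower, and 2 higher and 5 lower, so the balance among regulators turned with the scaling. Egln3, the hypoxia-inducible oxygen sensor, differed by 0.32 ± 0.10 (adjusted p = 0.0708) and rose by 0.38 without HSALR samples 9 and 10 (adjusted p = 0.041); it and Slc2a4 were singled out after their values were seen.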

How the data were processed

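Total RNA of 19 EDL samples was reverse transcribed, amplified as biotin-labelled cRNA and measured on 1-colour short-oligonucleotide arrays, per the labels' protocols. As deposited, each array has 1 linear signal intensity for each of its 45101 probe sets. The submitters' processing notes name GCOS 1.4; algorithm, scaling target and genome build: not given in the sources used here. Scaling moves small differences between the groups, which is why 2 scalings are reported.

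Platform annotation gave 34945 probe sets with 1 symbol, 932 with several and 9160 with none, leaving out 64 controls; 34741 of the first were matched to RefSeq symbols by Entrez identifier. Log2(signal + 16) values were tested for the 22519 probe sets with a mean at or above the median of 6.09, using limma 3.58.1 (R 4.3.3; lmFit and eBayes on group, 2-sided), with Benjamini-Hochberg adjustment over all of them and a threshold of 0.05. Quantile normalization was done over the tested probe sets. Gene counts use the brightest probe set per gene. The number of arrays limits the precision, and no read depth applies. The limma and diffSplice steps were run on simulated data, with changes larger than most of the differences reported here. Quantile normalization and the permutation test were not simulated. Alternatives covered scaling, pseudocount, filter, covariates, weights, variance model, probe set choice and left-out samples. Python 3.11.15 with matplotlib 3.10.9 made the figures.

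All 30 genes are named, and of each other list the genes past the threshold under either scaling. The members and all lists, markers and pairs were chosen with earlier results of these data known. Of 9 pairs listed, 7 could be made.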

Additional observations from a re-analysis of the deposited data

Results flagged for a closer look

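In 8 of 54 groups of samples (27 genes in 2 groups), 1 sample lay apart from the rest of its group as deposited by Dixon's criterion, where chance flags about 1 in 20 groups, or 2.7 here. All 8 were high wild-type values. Wild-type sample 6 was high in 4 genes, with a log2 signal of 13.88 for Aldoa, 13.52 for Tpi1, 13.44 for Pgam2 and 12.50 for Gyg. Its array also held the highest single signal of the series, at 17163. After quantile normalization wild-type sample 2 lay above sample 6 for Aldoa (13.82 against 13.76), Tpi1 (13.40 against 13.37) and Gyg (12.424 against 12.418). For Pgam2, sample 6 stayed highest of wild type, at 13.32 against 13.30 in sample 2. Wild-type sample 1, 1 of the brighter arrays with a trimmed mean of 230, was high at 8.60 for Hk1 and at 8.79 for Pfkfb2. After quantile normalization it lay under wild-type sample 3 for Hk1 (8.35 against 8.36) and stayed highest of wild type for Pfkfb2, at 8.54. Wild-type sample 9 had 12.68 for Hk2, where the next sample was at 12.39. Wild-type sample 8 had 10.96 for Bpgm, where the next was at 10.21. Wild-type samples 9 (Hk2) and 8 (Bpgm) stayed highest of wild type after quantile normalization, at 12.71 and 10.95.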

How the results depend on the processing

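The count of glycolysis and glycogen genes past the threshold, 3 as deposited, was 10 after quantile normalization, 8 with arrays centred on their median, 10 after quantile normalization without HSALR samples 9 and 10, 1 with no filter on low signal, 5 with a variance model with trend and robust, and 1 to 4 when 1 sample was left out. The count over the other pathway lists, 5 as deposited, was 11 after quantile normalization with or without those samples, 10 with centred arrays, 8 with the 3'/5' ratio of control probe sets as a covariate, 10 with array weights, and 5 to 8 when 1 sample was left out. Over all genes, 359 were higher and 266 lower as deposited, 817 and 968 after quantile normalization, and 1250 and 313 with array weights.

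Pfkfb3 fell past the threshold in all 19 fits without 1 sample and all 13 other alternatives. Fbp2 missed it with no filter and with the 3'/5' covariate, where the adjusted p was 0.0676 and 0.14. Phkb kept its call in 7 of the 13. Without samples 9 and 10, Pgam2 over Pgam1 differed by -0.25 and Pgm1 over Pgm2 by -0.31, and neither passed. With the replicate block (number in the titles, 9 in each group, so that HSALR sample 10 was left out) they differed by -0.35 and -0.45 and neither passed. Leaving out HSALR sample 10 with no block gave the same 2 differences, which passed (exact test, adjusted p = 0.0488 and 0.0376). Phkb lost its call in both of these fits, and both left 2 member calls, Fbp2 and Pfkfb3, so these member calls cannot be credited to the block. Correlations of same-numbered deviations ranged from -0.24 to 0.13 over 9 pairs, with 3 above 0.1. No values for differently numbered samples stand beside them, so they cannot decide whether the numbers pair the samples. When 1 sample was left out, the difference ranged from -0.48 to -0.35 for Pgam2 over Pgam1 and from -0.63 to -0.45 for Pgm1 over Pgm2, with 4 of 19 calls lost for each, and from 0.16 to 0.26 for Ldha over Ldhb, with 3 calls gained.

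Differences near 0 changed sign, and the cause was not tested. After quantile normalization they were -0.0120 for Aldoa, -0.00468 for Tpi1, -0.0196 for Pgam2, -0.0301 for Eno3 and -0.0575 for Ugp2, and with samples 9 and 10 left out as well, -0.0162 for Aldoa and -0.0326 for Eno3. With centred arrays they were -0.0247 for Aldoa, -0.0344 for Tpi1, -0.0238 for Pgam2, -0.0509 for Eno3 and -0.0330 for Ugp2. With the 3'/5' covariate the log2 fold of Tpi1 was -0.000634, the log2 fold of Eno3 was -0.0146 and that of Ugp2 was -0.0249. With array weights they were 0.0330 for Pfkfb4 and 0.0449 for Pgk1, with the replicate block 0.0134 for Pgk1 and -0.00212 for Eno3, and without samples 9 and 10, as deposited, 0.0351 for Pgk1. When 1 sample was left out, the ranges that crossed 0 were -0.0114 to 0.0214 for Eno3, -0.0215 to 0.0211 for Pgk1, -0.114 to 0.00283 for Pfkfb4, -0.00238 to 0.0397 for Tpi1 and -0.00879 to 0.0375 for Ugp2.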
